A study of Mus musculus with 6 samples.

Results

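The genes described are 9 that encode protein kinases inhibited by sorafenib: Araf, Braf, Ddr1, Kit, Fgfr1, Flt3, Ret, Pdgfrb and Kdr. They were chosen by name, and all 9 were among the 21362 gene names of the deposited count and FPKM tables. RNA sequencing had been run on 6 libraries of mouse CD4+ T cells in a study of sorafenib, a multikinase inhibitor given in liver and kidney cancer. Every library has the same labelled cell type and a running number from 1 to 6, with no treatment, genotype, strain, time or age. All 6 libraries were therefore left unassigned, no library was treated as a replicate of another, and cells with and without the drug were not compared. The labels do not say whether separate animals or cultures were used. Values listed in a series run from library 1 to library 6.

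The receptor kinases sit in the cell membrane, bind a growth factor or collagen outside the cell and pass the signal through adaptors to RAS. The RAF kinases bind active RAS in the cytoplasm and phosphorylate MEK, which activates ERK. In T cells that RAF step also lies downstream of the antigen receptor. Most of the receptors are known chiefly from other cells, such as mast cells and blood progenitors for Kit, dendritic cell precursors for Flt3, endothelium for Kdr, pericytes for Pdgfrb and epithelium for Ddr1.

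Total counts lay between 32435799 and 36316162 per library, so that 3 counts, the detection floor used here, stood for 0.0791 to 0.0966 CPM (counts scaled to the library total). The helper lineage markers were present, with Cd4 between 412 and 482 CPM and Cd3e, a chain of the T cell receptor complex, between 200.3 and 218 CPM. The 8 listed markers were not level between libraries and summed to 2972, 2938, 2838, 2458, 2472 and 2516 CPM. Cd28, Cd3d, Cd3g, Cd5 and Lck were lower in each of libraries 4 to 6 than in each of libraries 1 to 3. Cd4 was higher there, and Cd3e did not split in this way. Of the killer T cell co-receptor chains, Cd8b1 lay between 8.15 and 9.57 CPM and Cd8a had from 8 to 23 reads. The 5 killer T and NK cell markers summed to 8.55 to 10.2 CPM, nearly all of it Cd8b1. Levels between libraries are in CPM after scaling for library composition by TMM, which moved the libraries against each other by up to 0.12 log2 units compared with plain totals. The factors were 0.958, 0.959 and 0.967 for libraries 1 to 3 and 1.04, 1.04 and 1.03 for libraries 4 to 6. The scaling thus raised libraries 1 to 3 against libraries 4 to 6 for every gene. With plain totals Ddr1 ranged 1.24-fold and Kit 1.84-fold, against 1.35-fold and 2.002-fold after TMM. Levels between genes are in FPKM, which divides by gene length. The 95% intervals are exact Clopper-Pearson intervals and cover counting error only. Where they are given for the highest against the lowest of 6 libraries, that pair was picked by its values. The intervals make no allowance for this.

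Sequence before the transcription start was taken for the 4 kinases with the most reads, so that the start regions of Araf and Braf, which ranged little between libraries, can be read beside those of Ddr1 and Kit, which ranged more. Each line holds 250 bases upstream of the start from RefSeq on GRCm38.p6, written along the gene's own strand. They are chrX:20848293-20848542 on the plus strand for Araf, chr6:39725464-39725713 on the minus strand for Braf, chr17:35704600-35704849 on the minus strand for Ddr1 and chr5:75574737-75574986 on the plus strand for Kit. For Ddr1, with 4 annotated starts, and Kit, with 2, the most upstream start is shown. Capitals mark matches, on either strand, to 5 motifs. The GC box was searched as GGGCGG, and the cyclic AMP response element as TGACGTCA. The core site of ETS factors was searched as CCGGAA, that of RUNX factors as TGTGGT. The letters CCAAT stood for the box of that name. No match overlapped with another.
Araf: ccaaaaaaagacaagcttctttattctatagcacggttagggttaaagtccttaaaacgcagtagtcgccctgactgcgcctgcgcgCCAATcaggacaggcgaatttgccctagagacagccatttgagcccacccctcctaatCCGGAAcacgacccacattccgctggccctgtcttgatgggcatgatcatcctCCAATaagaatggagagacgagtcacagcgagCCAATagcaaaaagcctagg
Braf: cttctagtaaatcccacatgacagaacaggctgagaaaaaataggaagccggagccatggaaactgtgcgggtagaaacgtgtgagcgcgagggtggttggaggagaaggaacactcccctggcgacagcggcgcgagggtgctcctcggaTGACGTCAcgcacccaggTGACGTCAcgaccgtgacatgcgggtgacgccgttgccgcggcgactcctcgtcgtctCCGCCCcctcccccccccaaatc
Ddr1: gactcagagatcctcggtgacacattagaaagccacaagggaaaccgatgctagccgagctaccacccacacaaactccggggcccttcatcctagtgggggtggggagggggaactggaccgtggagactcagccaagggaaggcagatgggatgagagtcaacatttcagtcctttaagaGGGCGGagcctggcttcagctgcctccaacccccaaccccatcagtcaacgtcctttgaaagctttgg
Kit: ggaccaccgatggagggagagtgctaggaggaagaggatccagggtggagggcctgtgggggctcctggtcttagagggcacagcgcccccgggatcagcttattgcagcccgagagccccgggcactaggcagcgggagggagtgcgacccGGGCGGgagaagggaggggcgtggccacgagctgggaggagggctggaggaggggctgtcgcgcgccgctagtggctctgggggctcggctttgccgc

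The Braf window held 2 matches to the cyclic AMP response element, beginning 99 and 81 bases before the start, a motif found in 1.55% of 32841 mouse windows of the same length, and 1 GC box. Araf held 3 CCAAT boxes and 1 ETS core. Ddr1 and Kit each held 1 GC box and none of the other 4 motifs. The GC box was present in 32.7% of all windows, the CCAAT box in 33.9%, the ETS core in 12.0% and the RUNX core in 14.0%. GC content was 70.8% for Kit, 62.0% for Braf, 56.8% for Ddr1 and 51.2% for Araf, against a median of 52.4% over all windows. Of the 9 kinases, 6 had a window in this search, and none was taken for Fgfr1, Ret or Pdgfrb. A match describes these letters only and was not linked to binding or to level.

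By mean FPKM the kinases ran from 11.7 for Araf down to 0.0129 for Kdr, in the order shown in the plot of FPKM by gene. Araf led at 11.0 to 12.5 FPKM, followed by Braf at 8.20 to 8.84, Ddr1 at 4.73 to 5.86, Kit at 1.28 to 2.36, Fgfr1 at 0.288 to 0.642 and Flt3 at 0.128 to 0.284 FPKM. The ranges of these 6 genes over the libraries did not overlap, and the top 5 stood in the same order in all 6 libraries. Flt3 and Ret overlapped in range although Flt3 was higher in 6 of 6 libraries. Ret overlapped with Pdgfrb, and Pdgfrb with Kdr, with the first-named gene higher in 5 libraries in each case. By mean FPKM, 20.3% of all genes lay above Araf, 31.6% above Ddr1, 42.7% above Kit and 78.7% above Kdr.

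**Figure D1:**
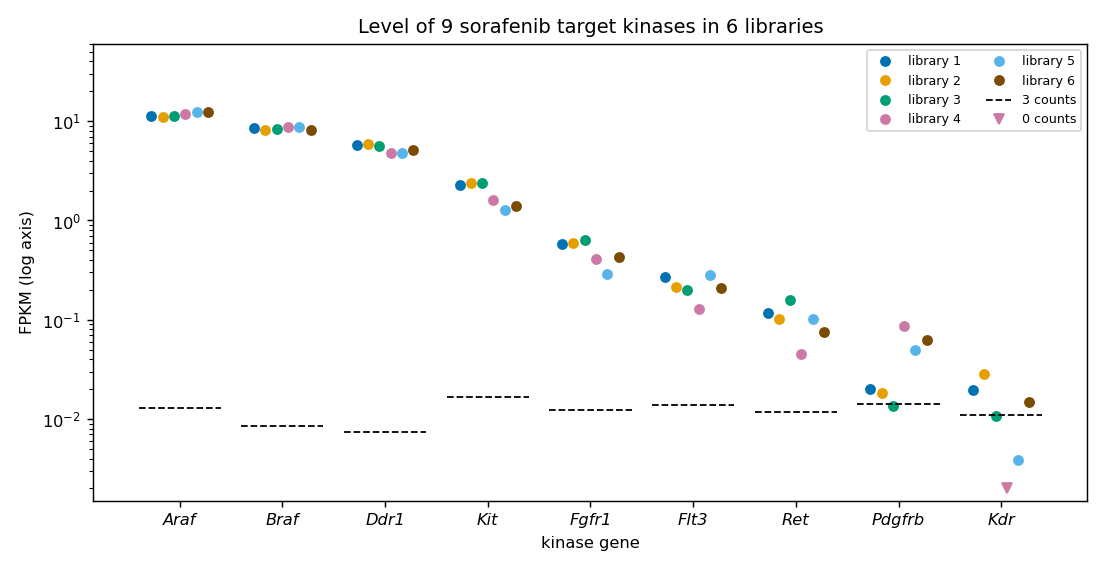
Deposited FPKM (log axis) of the 9 kinase genes, with 1 point per library and a dashed line at the FPKM that 3 counts represent for that gene. Araf and Braf lie near 10 FPKM in every library, and only Pdgfrb and Kdr have libraries at or below the line (the triangle marks the library with 0 counts, drawn at the foot of the axis).

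The order of the leading genes rested on the gene lengths behind the FPKM values. Dividing counts by FPKM and library total gave a length of 11583 bases for Ddr1, against 4774 exon bases in GENCODE M21, and 10074 bases for Braf, against 13862. The annotation the authors used is not given in the sources used here. With the GENCODE lengths, tried after the length of Ddr1 had been seen, Ddr1 led with a median of 13.0 CPM per kilobase, and Araf followed at 12.1, Braf at 6.19 and Kit at 1.14 CPM per kilobase. Their libraries then ran from 11.0 to 14.8 CPM per kilobase for Ddr1 and from 11.6 to 12.4 for Araf, so these genes could not be ordered, while the ranks from Kit down to Kdr were the same with either length.

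Araf and Braf, serine/threonine kinases that receive the signal from RAS, had the smallest ranges of the 9. Araf stood at 79.2, 77.1, 78.9, 75.7, 80.3 and 80.9 CPM. Its highest library exceeded its lowest by 1.07-fold, and the intervals of all libraries overlapped. Braf stood at 89.4, 86.2, 86.6, 83.6, 85.3 and 80.3 CPM. It ranged 1.11-fold, and the interval of library 1 (86.1 to 92.8 CPM) lay above that of library 6 (77.4 to 83.3 CPM). The order of the libraries depended on scaling: by the deposited FPKM, Araf was highest in library 5 and Braf in library 5, and Araf ranged 1.13-fold with plain total counts. Braf and Ndufb2, on the opposite strand, shared 146 exon bases in GENCODE M21, which is 1.05% of the exon bases of Braf, and the strand setting of the counting is not stated.

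Ddr1, a receptor tyrosine kinase that binds collagen, was the most abundant receptor of the 9. It stood at 70.1, 70.8, 67.3, 52.5, 53.1 and 56.9 CPM. Each of libraries 1, 2 and 3 was above each of libraries 4, 5 and 6, with no overlap of the intervals between those libraries, and the range was 1.35-fold, or 1.23-fold by the deposited FPKM with a pseudocount of 0.1. Genes outside the 9 kinases split the same way, such as Cd28 at 848, 786, 783, 524, 510 and 507 CPM, and Cd4 split the opposite way. The share of all genes with such a split was not counted, so it is not shown to be particular to these kinases. Epithelial markers were read beside it because Ddr1 is known from epithelium. Of 5 such genes 2 reached 1 CPM, with Epcam at 40.6, 44.6, 46.1, 14.0, 14.0 and 13.4 CPM and Krt18 between 1.29 and 4.57 CPM. The summed level of the 5 ran from 14.8 to 50.2 CPM, the keratin gene Krt8 had at most 1 read and the adhesion gene Cdh1 at most 10. Their part in the level of Ddr1 was not tested, and in bulk RNA fewer cells of a type and less RNA per cell cannot be told apart. Col1a1, which encodes a chain of the collagen that Ddr1 binds, lay between 1.24 and 1.89 CPM, and Col1a2 and Col3a1 had at most 1 read.

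Kit, the receptor for stem cell factor, stood at 12.4, 12.8, 12.7, 7.91, 6.35 and 7.06 CPM, from 221 to 442 reads. Libraries 1, 2 and 3 lay above libraries 4, 5 and 6, and no interval of libraries 1 to 3 reached one of libraries 4 to 6. The range was 2.002-fold, at the edge of the 2-fold threshold, and 1.80-fold without library 5. The plain CPM ratio of library 2 to library 5 was 2.01, with a counting interval of 1.71 to 2.37. Mast cell and basophil transcripts were scarce: Cpa3 and Fcer1a had at most 1 read in any library, and Hdc, the histidine decarboxylase gene, had from 5 to 29 reads. The summed level of the 4 such genes in the table, of 9 listed, lay between 0.161 and 0.872 CPM, and the part of such cells in the level of Kit was not tested. Kitl, which encodes the ligand of Kit, had from 0 to 6 reads.

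Fgfr1, a receptor for fibroblast growth factors, stood at 4.25, 4.36, 4.70, 2.74, 1.95 and 2.95 CPM, from 68 to 164 reads. Its libraries fell in the same split as those of Kit, with libraries 1, 2 and 3 above libraries 4, 5 and 6. The intervals were wider here, and that of library 1 (3.55 to 5.04 CPM) touched that of library 6 (2.41 to 3.57 CPM). The range was 2.37-fold, and 1.70-fold without library 5. The plain CPM ratio of library 3 to library 5 was 2.41, with a counting interval of 1.80 to 3.24. Fgf2, which encodes a ligand of this receptor, stood at 11.2, 11.2, 11.4, 7.67, 7.33 and 7.90 CPM.

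Flt3, the receptor for the FLT3 ligand, stood at 1.74, 1.39, 1.29, 0.765, 1.70 and 1.27 CPM, from 29 to 59 reads. Library 4 was lowest and library 1 highest, with library 5 next to it, so the libraries did not fall as they did for Kit. The range of 2.18-fold rested on library 4 and was 1.36-fold without it. Flt3l, which encodes the ligand, was itself among the more abundant genes of the ligand list, at 58.6, 53.9, 55.1, 46.0, 46.7 and 47.3 CPM. Of 6 markers of dendritic cells and progenitors in the table, 3 had at most 3 reads in every library. Their summed level, from 2.86 to 5.74 CPM, was nearly all Zbtb46, a transcription factor gene at 2.61, 3.04, 2.70, 4.80, 5.12 and 5.45 CPM. The part of such cells in the level of Flt3 was not tested.

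**Figure D2:**
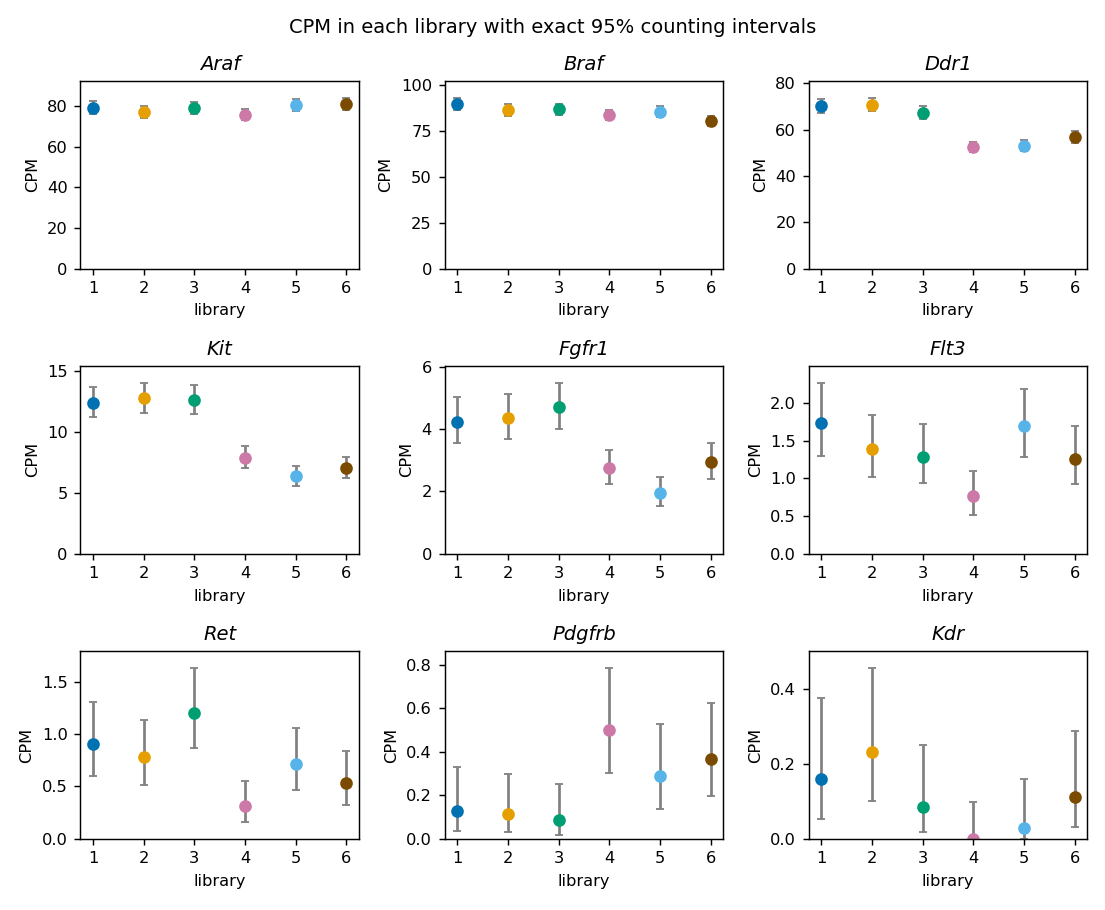
CPM after TMM scaling of each kinase gene in libraries 1 to 6, with 1 point per library and bars for the exact 95% counting interval; each panel has its own axis from 0. Ddr1, Kit and Fgfr1 are higher in libraries 1 to 3 than in libraries 4 to 6, Araf and Braf are nearly level, and the intervals of Ret, Pdgfrb and Kdr are wide.

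Ret, Pdgfrb and Kdr stayed below a mean of 1 CPM. Ret, the receptor for the GDNF family of growth factors, had 28, 27, 42, 12, 25 and 19 reads, and so was above the floor of 3 counts in every library. Its levels were 0.901, 0.780, 1.20, 0.316, 0.719 and 0.534 CPM. Library 3 was highest and library 4 lowest, with a ratio of 3.81 and a counting interval of 1.97 to 7.94. Gfra1, which encodes the co-receptor through which RET binds GDNF, stood at 2.41, 3.61, 3.38, 0.290, 0.517 and 0.562 CPM. That is 75, 125, 118, 11, 18 and 20 reads, a ratio of 12.5 between library 2 and library 4 with a counting interval of 6.73 to 25.6. The ligand genes Artn and Nrtn had from 1 to 31 and from 2 to 9 reads.

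Pdgfrb, a receptor for platelet-derived growth factor, had 4, 4, 3, 19, 10 and 13 reads. Library 3 was at the floor, libraries 1 and 2 were 1 read above it, and libraries 4, 5 and 6 held more reads than the other 3. The ratio of library 4 to library 3 was 5.82, with a counting interval of 1.71 to 30.7. The intervals of libraries 5 and 6 overlapped with those of libraries 1, 2 and 3, so at this depth only library 4, at 0.501 CPM (0.302 to 0.782), was separate, and only from libraries 2 and 3. Its ligand gene Pdgfb was well expressed, between 59.3 and 69.5 CPM, and Pdgfa lay between 1.80 and 3.36 CPM. Markers of fibroblasts and pericytes summed to 1.29 to 2.52 CPM over 6 genes in the table, most of it Col1a1, while the actin gene Acta2 had at most 1 read.

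Kdr, the main endothelial receptor for VEGF, had 5, 8, 3, 0, 1 and 4 reads. Libraries 3, 4 and 5 were at or below the floor, and libraries 1, 2 and 6 were 1 to 5 reads above it. The 0 reads of library 4 stand for up to 0.0791 CPM at the floor of 3 counts, and their exact interval reaches 0.0973 CPM. Library 2, at 0.231 CPM, was 2.92-fold above that floor, and the lower counting limit of its ratio to library 4 was 1.87. That limit does not allow for the choice of these libraries as highest and lowest. Endothelial markers at the floor in every library numbered 4 of the 6 in the table. Cdh5, which encodes VE-cadherin, had at most 6 reads, while Pecam1, also known from leukocytes, had 27.1 to 42.4 CPM and made up most of the summed 27.2 to 42.5 CPM. Vegfa, which encodes the ligand, was by FPKM the most abundant gene of the ligand list, at 662, 663, 612, 366, 376 and 390 CPM. The VEGF co-receptor genes Nrp1 and Nrp2 lay between 8.30 and 12.5 CPM and between 2.04 and 3.80 CPM.

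Of the 9 kinases, 0 were at the floor in every library, against 21.9% of all 21362 genes, and 2, Pdgfrb and Kdr, were at or below it in at least 1 library. A mean of 1 CPM was reached by 6. Of these, 3 ranged 2-fold or more, namely Kit, Flt3 and Fgfr1, where 10.5% of the 11516 genes reaching this level did. Their median range was 1.64-fold, against 1.29-fold for all such genes. Intervals of the highest and lowest library were separate for 5 of the 6, all but Araf, a count to be read against 85.0% of all such genes. With 6 genes chosen by name, and with ranges that grow as reads become few, these counts describe the kinases only.

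**Figure D3:**
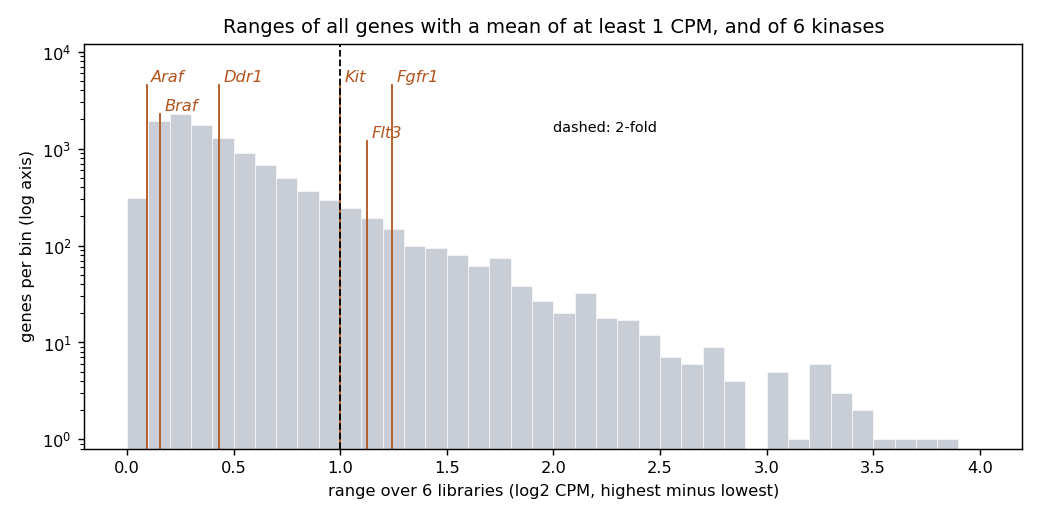
Histogram of the range over 6 libraries (log2 CPM, highest minus lowest) for the 11516 genes averaging 1 CPM or more, with the number of genes per bin on a log axis and lines at the 6 kinases that reached that mean. Araf, Braf and Ddr1 lie left of the dashed 2-fold line, Kit lies on it, and Flt3 and Fgfr1 lie to its right.

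Ratios within a library do not depend on how the libraries were scaled. For every 100 Braf reads there were 88.6, 89.4, 91.1, 90.6, 94.0 and 100.7 Araf reads, and the interval of library 6 (95.6 to 106) lay above those of libraries 1, 2 and 4. There were 78.4, 82.1, 77.7, 62.8, 62.2 and 70.8 Ddr1 reads. For Kit the numbers were 13.9, 14.8, 14.6, 9.46, 7.44 and 8.79, and for Fgfr1 they were 4.75, 5.06, 5.43, 3.28, 2.29 and 3.68. Ddr1, Kit and Fgfr1 thus had fewer reads per Braf read in each of libraries 4, 5 and 6 than in each of libraries 1, 2 and 3. The share of all genes with that split was not counted. Kit varied more than Ddr1, with 564, 554 and 531 Ddr1 reads per 100 Kit reads in libraries 1 to 3 and 663, 835 and 806 in libraries 4 to 6.

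**Figure D4:**
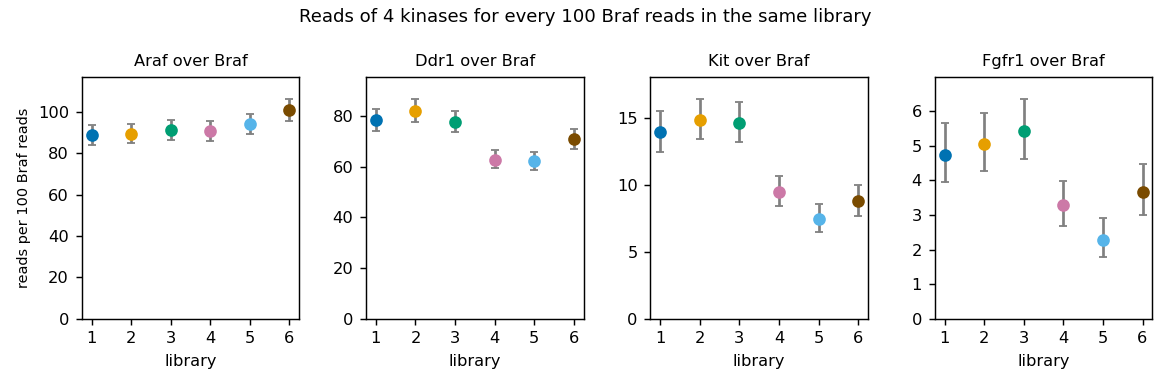
Reads of Araf, Ddr1, Kit and Fgfr1 for every 100 Braf reads in the same library, with bars for the exact 95% counting interval and each panel's axis starting at 0. Araf lies between 88.6 and 100.7, while Ddr1, Kit and Fgfr1 are lower in libraries 4 to 6 than in libraries 1 to 3.

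The 7 receptor genes together held 9.09, 9.18, 9.01, 6.99, 6.79 and 7.27 FPKM. Ddr1 made up 62.4% to 70.4% of that sum, Kit 18.8% to 26.3%, Fgfr1 4.25% to 7.13% and Flt3 1.83% to 4.19%. Ret, Pdgfrb and Kdr stayed at or below 1.76%, 1.23% and 0.308%. With GENCODE lengths the share of Ddr1 was 85.9% to 89.2% and that of Kit 5.72% to 8.67%.

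Other kinases that sorafenib is known to inhibit were taken from a separate list. Mapk14, the stress kinase p38 alpha, lay between 83.4 and 97.3 CPM, and Map3k20, a stress-activated kinase kinase, between 34.9 and 40.1 CPM. The other VEGF receptor genes Flt1 and Flt4 had at most 7 and 6 reads, Csf1r at most 3 and the kinase gene Hipk4 from 7 to 16. Ddr2, the other collagen receptor of the DDR family, had 24, 14, 28, 4, 3 and 0 reads, and library 3 was 9.52-fold above the floor of 3 counts that stands for the 0 reads of library 6, with a lower counting limit of 7.24 for the ratio. Pdgfra, also on that list, was not among the gene names of the count table used.

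Around the RAF kinases, the 35 genes of the RAS, RAF, MEK and ERK module were all in the table, and 33 averaged 1 CPM or more. Of these, 0 ranged 2-fold or more, and their median range was 1.18-fold against 1.29-fold for all genes averaging 1 CPM or more. Of all such genes 10.5% ranged 2-fold or more, and of those averaging 5 CPM or more 4.69% did. The counts of the lists that follow are to be read against the same shares. Ranges grow as reads become few, and the lists were not matched to other genes by level. Hsp90ab1, a chaperone on which RAF kinases depend, was the most abundant by FPKM, at 2842 to 3220 CPM, and Rras, a RAS relative, ranged most, 1.59-fold. Of 17 adaptors and regulators of the receptors in the table, 16 reached 1 CPM and 0 ranged 2-fold. Ptpn6, a phosphatase that restrains Kit and antigen receptor signalling, was the most abundant by FPKM, at 233 to 303 CPM. Frs3, an adaptor of FGF receptors, ranged most, 1.91-fold. Of 19 ligand genes, 7 reached 1 CPM and 0 ranged 2-fold, Pdgfa ranging most with 1.84-fold. Of 8 co-receptor genes, 5 reached 1 CPM and 1, Gfra1, ranged 2-fold or more. Sdc4, a heparan sulfate proteoglycan that can hold FGF near its receptor, was the most abundant of them by FPKM, at 241, 244, 239, 161, 162 and 163 CPM, and Sdc1 lay between 6.70 and 13.0 CPM.

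The genes most like each varying kinase were sought among named genes averaging 10 CPM or more, by the root mean square difference of log2 CPM from each gene's own median over the 6 libraries. For Kit they were Isg20, an exonuclease gene, at 0.05 log2 units, Crem, a transcription factor gene, at 0.08, and Tapt1 at 0.08. Isg20 stood at 18.8, 18.4, 19.2, 11.7, 9.54 and 11.2 CPM. For Fgfr1 they were again Isg20 at 0.11, then Reep1 at 0.12 and Havcr2, which encodes the inhibitory receptor TIM-3, at 0.15 log2 units. Flt3 had no gene as close, with Zfp579 at 0.23 and Atat1 at 0.26 log2 units, and at 29 to 59 reads its own counting error adds to these differences.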

How the data were processed

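Per the labels' protocols, total RNA was extracted with TRIzol and made into VAHTS Universal V5 libraries. Per the submitters' processing notes, the tools were HTSeq, HISAT2, fastp, DESeq2 and R 3.2.0 and the assembly GRCm39, with no order, settings or strand given. The authors deposited raw read counts per gene and FPKM values per gene, used as deposited. Count over FPKM and library total was constant per gene within a relative 2.57e-08, so FPKM rescales the same reads. The members and gene lists were chosen with earlier results of these data known.

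TMM factors were computed with edgeR 4.0.16 in R 4.3.3, and log2 CPM used a prior count of 2. A range is the highest library minus the lowest on that scale. Ratios of libraries that carry a counting interval are of plain CPM, without the prior count, and can exceed the range. Counts of genes cover those averaging 1 CPM or more. Intervals are exact Clopper-Pearson 95% intervals, and reads amplified by PCR are not independent molecules. The range procedure was tested on simulated counts with counting error only. The genes changed there had more reads than Flt3, Ret, Pdgfrb and Kdr, so changes at such low counts were not covered. The labels give no groups, so no test between groups was made. Named were all members, all further targets, the most abundant and the most variable gene of each other list, every ligand or co-receptor at 1 CPM or more, and the 3 nearest genes of each member ranging 2-fold. Genes that these rules named but that are withheld are not reported here. Other genes given, such as low ligands and marker genes, were chosen after their values were seen. Promoters came from RefSeq on GRCm38.p6 by symbol, and all 9 members and 20421 of 21362 names matched RefSeq symbols. Alternatives were DESeq2 1.42.0 size factors, plain totals, FPKM with a pseudocount of 0.1, a prior count of 0.5, a filter at 5 CPM or no filter, a floor of 10 counts, a 99% Poisson interval and each library left out. Analysis used Python 3.11.15, numpy 2.4.6, pandas 2.3.3, scipy 1.17.1 and matplotlib 3.10.9.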

Additional observations from a re-analysis of the deposited data

How the results depend on the processing

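No paired analysis was possible because the labels put no library in a group. The count of kinases ranging 2-fold or more, 3 in the report, was 3 with DESeq2 size factors (10.4% of all genes tested) or a prior count of 0.5 (10.7%) and 2 with plain totals (11.2%). It was 0 with deposited FPKM and a pseudocount of 0.1 (8.54% of all genes), a setting that also leaves out TMM scaling. Plain totals leave it out too, and there Flt3 ranged 2.14-fold and Fgfr1 2.19-fold, against 1.68-fold and 1.91-fold with FPKM and the pseudocount. Kit ranged 1.84-fold and 1.79-fold in these settings, which differ in the amount added before taking logs. The count was 1 (Kit) at a minimum mean of 5 CPM (4.69%) and 6 with no filter (32.2%). Leaving out each library gave 1 to 3 (9.02% to 9.45%), with Kit and Fgfr1 below 2-fold without library 5, and Flt3 below it without library 4. Separate intervals, 5 in the report, numbered 6 with plain totals, 3 at a mean of 5 CPM, 8 with no filter, 4 with 99% Poisson intervals and 4 to 5 with a library left out. The number at the floor, 0 in the report, was 1 (Kdr) at 10 counts, and 0 with any library left out. For separate intervals and for the floor, no share of all genes is given at these alternatives. Those counts therefore describe the kinases only. The ranks of Araf, Braf and Ddr1 changed with GENCODE lengths, an alternative chosen after seeing the data. Under 30 reads, as for Pdgfrb and Kdr, depth limits any order of the libraries.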

Other observations

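Of the 8 relatives of these receptors in the table, 1 reached a mean of 1 CPM. It was Fgfrl1, which encodes an FGF receptor without a kinase domain, at 0.998, 1.30, 1.26, 1.85, 0.690 and 1.29 CPM. Its library 4 was highest and library 5 lowest, a range of 2.55-fold on 24 to 70 reads. Fgfr3 had 4, 3, 6, 14, 9 and 11 reads, Fgfr4 at most 4 and Fgfr2 at most 1.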
